A study of Mus musculus with 30 samples.

Results

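Repopulated microglia of offspring exposed to maternal immune activation (MIA) were compared with the resident microglia of untreated saline offspring at P60, to show how close the new cells came to an undisturbed adult population. The comparison took 6 of the 30 libraries of the series by their labels, the 3 of MIA + MG-REP (labelled MIA_MG-REP) and the 3 of Saline + CTRL (labelled Saline_CTRL), and all 14225 transcripts of the deposited expression table. Of these transcripts, 88 passed the test, 46 of them higher and 42 lower in the repopulated microglia. Those that rose included the CD30 ligand Tnfsf8, the inhibitory receptor Pdcd1, the cell cycle inhibitor Cdkn2a and the ketone body receptor Hcar2. Those that fell included Myo18b, the orphan receptor Gpr165, the prostaglandin receptor Ptger3 and Tnfrsf17, which encodes the receptor BCMA. The homeostatic transcripts P2ry12, Tmem119 and Cx3cr1 and the proliferation transcripts Mki67 and Top2a did not pass.

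All mice were of the C57BL/6J strain, and no transgene is named. In the MIA groups the dams had been injected during pregnancy with poly(I:C), double-stranded RNA made to mimic a viral infection, and in the Saline groups with saline. MG-REP offspring ate chow with PLX5622 after weaning and were then returned to control chow, while CTRL offspring had control chow throughout. PLX5622 inhibits CSF1R, the receptor without whose signal microglia die, so that the cells are depleted and return once the drug is withdrawn. Each P60 library held the poly(A) RNA of the cells that CD11B beads took from the whole brain of 1 mouse, and the study used male and female offspring without naming the sex of each library in the labels. Since the 2 groups differed in both the treatment of the dam and the chow, the parts of each in a difference cannot be told apart from these 6 libraries, and the 3 libraries each of MIA + CTRL and Saline + MG-REP are given beside them. Cells that outlived the drug and cells born after it were not distinguished. Nothing in the labels says which offspring shared a litter, so the p-values measure the spread between libraries. That spread was taken over all 30 libraries of the series. By the methods of the study, each E17 library was a pool of 1 litter and each P7 library a pool of 3 brains.

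Microglia are the macrophages of the brain parenchyma, seeded from the yolk sac before birth and maintained afterwards by their own division under CSF1R signals. After depletion, the few cells left divide and fill the brain again, and the new population matures over the following weeks. Adult microglia at rest carry a characteristic set of transcripts, among them P2ry12, Tmem119 and Cx3cr1, and replace it in part with others such as Itgax, Cst7 and Gpnmb in disease or injury.

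The microglial identity of the libraries was clear from their markers, whose summed level was 35290 to 51120 TPM (abundance normalised for transcript length and library total) in Saline + CTRL and 39390 to 43870 TPM in MIA + MG-REP. Cst3 was the transcript with the highest level in each of the 6 libraries, 123 to 179 transcripts were listed at 0 in Saline + CTRL and 127 to 148 in MIA + MG-REP, and the 10 highest transcripts took 11.4% to 16.4% and 14.6% to 15.8% of the total. TPM do not carry the sequencing depth, and the depth of each library is not given in the values used here. The sex-linked transcripts split the control libraries. Xist, the RNA that coats the inactive X chromosome, was at 124, 0.29 and 0.28 TPM in Saline + CTRL and 174, 163 and 159 TPM in MIA + MG-REP, while the Y-linked transcripts summed to 0.46, 268.5 and 318.1 TPM and to 0.36, 0.62 and 0.61 TPM. Only the first Saline + CTRL library therefore resembled the 3 MIA + MG-REP libraries in these transcripts, and the results are given below also against that library alone and with Xist as a covariate. The labels do not give the sex of the mice.

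The promoters of 5 transcripts are shown because these transcripts, together with Myo18b and the low Gcm2, were the 7 that passed under every other treatment of the data that was tried, apart from the block by replicate number, and against the first Saline + CTRL library alone. Gcm2 had a mean under 1 TPM and was therefore not tested under the filter at that level. The sequences are those of RefSeq on the GRCm38.p6 assembly, of the mm10 build that the authors aligned to, and run 5′ to 3′ from 250 bases before to 50 bases after the start of transcription. Capitals mark a match to the core of the interferon-stimulated response element, GTTTCNNTT, which interferon regulatory factors bind. For Cdkn2a, which has 2 starts, the sequence of the downstream start is given, from which the p16INK4A transcript begins.
Tnfsf8, chr4:63861235-63861534, minus strand: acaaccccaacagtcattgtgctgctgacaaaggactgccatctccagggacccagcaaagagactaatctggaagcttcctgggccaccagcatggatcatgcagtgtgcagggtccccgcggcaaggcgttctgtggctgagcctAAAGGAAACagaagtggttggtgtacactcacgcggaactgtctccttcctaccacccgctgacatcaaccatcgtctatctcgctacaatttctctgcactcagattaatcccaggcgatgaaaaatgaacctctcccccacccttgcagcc
Pdcd1, chr1:94052504-94052803, minus strand: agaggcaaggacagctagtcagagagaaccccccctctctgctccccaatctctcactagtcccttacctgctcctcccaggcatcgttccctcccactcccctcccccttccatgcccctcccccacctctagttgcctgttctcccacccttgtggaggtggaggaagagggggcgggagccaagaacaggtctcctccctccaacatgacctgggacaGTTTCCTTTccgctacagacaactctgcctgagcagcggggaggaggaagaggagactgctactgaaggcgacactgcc
Cdkn2a, chr4:89282143-89282442, minus strand: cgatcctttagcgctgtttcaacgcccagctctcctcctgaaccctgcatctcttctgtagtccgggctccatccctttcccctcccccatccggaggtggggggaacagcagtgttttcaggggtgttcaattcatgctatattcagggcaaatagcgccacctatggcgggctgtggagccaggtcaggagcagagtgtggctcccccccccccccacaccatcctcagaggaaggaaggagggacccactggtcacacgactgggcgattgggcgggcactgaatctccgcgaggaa
Gpr165, chrX:96713218-96713517, plus strand: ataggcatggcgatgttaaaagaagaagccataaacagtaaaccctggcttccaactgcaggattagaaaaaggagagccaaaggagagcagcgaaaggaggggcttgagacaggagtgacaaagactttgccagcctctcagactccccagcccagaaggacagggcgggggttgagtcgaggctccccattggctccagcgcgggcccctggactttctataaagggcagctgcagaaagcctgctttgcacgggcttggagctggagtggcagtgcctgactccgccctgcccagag
Ptger3, chr3:157566626-157566925, plus strand: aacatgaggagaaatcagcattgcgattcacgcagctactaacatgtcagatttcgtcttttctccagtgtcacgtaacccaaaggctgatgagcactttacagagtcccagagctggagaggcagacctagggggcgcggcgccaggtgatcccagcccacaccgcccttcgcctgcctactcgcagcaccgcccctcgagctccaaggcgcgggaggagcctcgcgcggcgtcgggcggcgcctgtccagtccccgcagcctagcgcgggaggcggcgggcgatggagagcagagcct
The match in Pdcd1 began at position -29 from the start, and that in Tnfsf8 lay on the opposite strand at position -103. The same letters stood on either strand in 485 of the 10476 promoters of the table (4.63%), in 3 of the 36 available promoters of transcripts that rose (8.33%) and in 2 of 29 of those that fell (6.9%). An AP-1 site (TGACTCA) was present in 5 of the 36 and 0 of the 29 promoters against 3.68% of all, and a PU.1 site (GAGGAAGT) in 2 and 0 against 3.11%. The cAMP response element (TGACGTCA, 3.05% of all) and the NF-kB site (GGGACTTTC, 0.41%) were in none of either set. These motifs were searched on both strands of the 300 bases, do not contain one another, and a match is a description of the letters.

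Over the whole table, MIA + MG-REP lay near Saline + CTRL. Of the 14225 transcripts, 88 (0.619%) had an adjusted p under 0.05 by limma with Benjamini-Hochberg adjustment, 46 of them higher (0.323%) and 42 lower (0.295%) in MIA + MG-REP, and 861 had an unadjusted p under 0.05. The median log2 fold change, here the difference of mean log2(TPM + 1), was -0.03, and the median of its absolute value was 0.13 beside a median SE of 0.21. For 11613 transcripts (81.6%) the 95% interval of the difference lay within 1 log2 unit on either side of 0. The remaining transcripts cannot all be read as different, since only 126 had a difference of over 1 log2 unit, of which 63 passed, and 20 had an interval wholly beyond it among the 88. The share of intervals inside these bounds was 91.1% below a mean of 1 TPM, 70% from 1 to 10 TPM, 84.6% from 10 to 100 TPM and 89.8% at 100 TPM or more. Below 1 TPM the pseudocount of 1 keeps differences small, so the 1775 intervals counted there say little about closeness. Over all transcripts, the share was 60.2% at a pseudocount of 0.1, 67.3% with Xist as a covariate and 86.3% under quantile normalization. With 1 library left out it ran from 74.1% to 75.2%.

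The neighbouring contrasts put these counts on a scale. Saline + MG-REP differed from the same Saline + CTRL libraries in 3805 transcripts (26.7%), 1687 higher (11.9%) and 2118 lower (14.9%). MIA + CTRL differed from them in 0 transcripts (0%), with 256 at an unadjusted p under 0.05. These 3 contrasts share the Saline + CTRL libraries, so that they are not independent. They are also unlike in Xist. It was at 140, 0.14 and 0.2 TPM in MIA + CTRL, a mix like that of Saline + CTRL. In Saline + MG-REP it was at 165, 169 and 161 TPM, near the levels of MIA + MG-REP. Its part in the counts of MIA + CTRL and Saline + MG-REP against Saline + CTRL was not tested. In the direct test of MIA + MG-REP against Saline + MG-REP, 3124 transcripts (22.0%) passed, 1553 higher (10.9%) and 1571 lower (11.0%) in MIA + MG-REP.

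**Figure D1:**
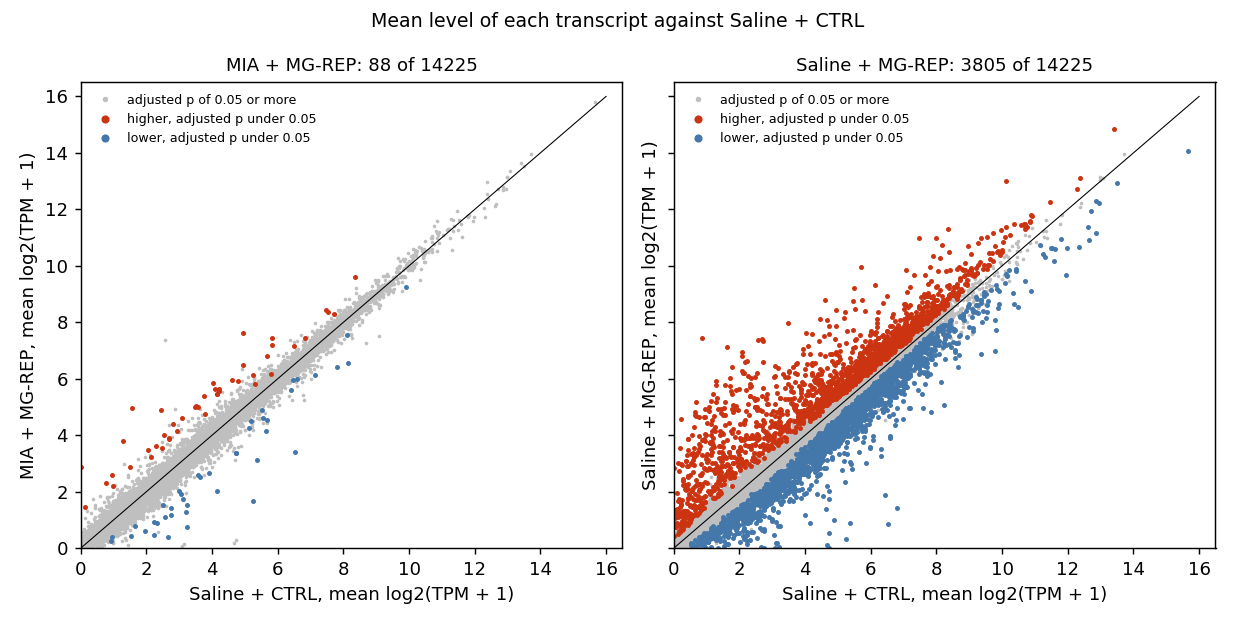
Mean log2(TPM + 1) of each of 14225 transcripts in Saline + CTRL (x axis) against MIA + MG-REP (left) or Saline + MG-REP (right), 3 libraries each, with the line of equality and transcripts of an adjusted p under 0.05 in red (higher) or blue (lower). The left cloud keeps close to the line with 88 coloured points, and the right one is wider with 3805.

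The distance between the mean profiles, taken as the root mean square of the differences in log2(TPM + 1) over all transcripts, was 0.283 between MIA + MG-REP and Saline + CTRL. It was 0.236 between MIA + CTRL and Saline + CTRL, 0.709 between Saline + MG-REP and Saline + CTRL, 0.637 between the MG-REP groups and 0.312 between MIA + MG-REP and MIA + CTRL. In an exact two-sided permutation test over the libraries, the first of these had p = 0.4 and the others p = 0.6, 0.1, 0.1 and 0.1, where 0.1 is the smallest value that 3 libraries against 3 can give. Single libraries of MIA + MG-REP lay 0.359 to 0.566 from single libraries of Saline + CTRL, with a median of 0.434. The Saline + CTRL libraries lay 0.443 to 0.651 from each other, and the MIA + MG-REP libraries 0.300 to 0.368. The distances between the groups therefore fell within or below those inside the control group. Against the first Saline + CTRL library, the one with Xist, the 3 distances were 0.359, 0.393 and 0.388, and those to the other two ran from 0.424 to 0.566. The first Saline + MG-REP library stood apart, at 0.919 to 1.01 from MIA + MG-REP where the other two were at 0.584 to 0.631. Without it, 1731 transcripts differed between the MG-REP groups.

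**Figure D2:**
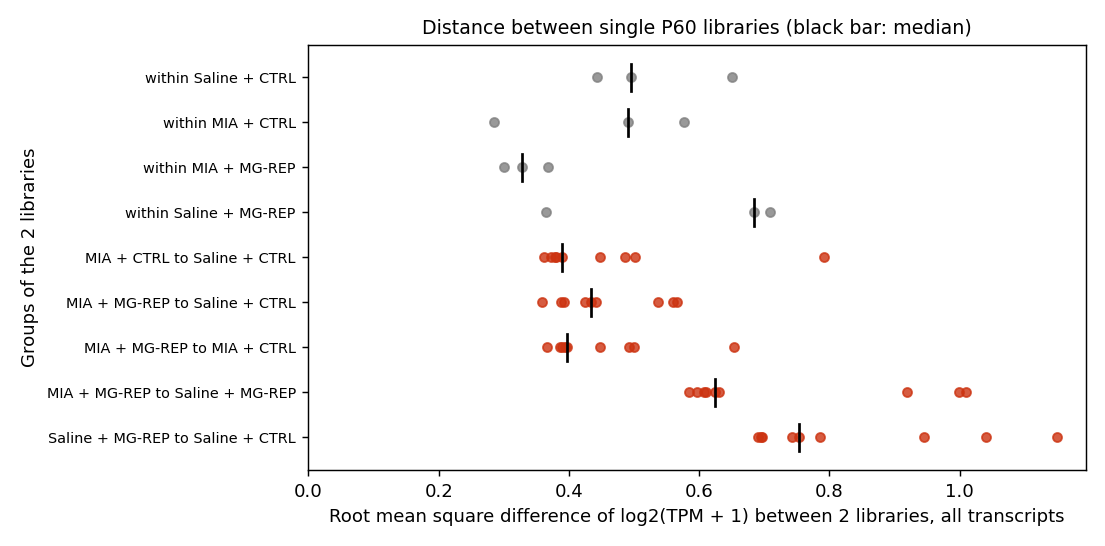
Distance between pairs of single P60 libraries, as the root mean square difference of log2(TPM + 1) over all transcripts (x axis), with 1 point for each pair, grouped by the groups of the 2 libraries (y axis) and a bar at the median. Pairs of MIA + MG-REP and Saline + CTRL sit at 0.359 to 0.566, overlapping the pairs within Saline + CTRL. Pairs of Saline + MG-REP with MIA + MG-REP sit at 0.584 to 1.01, and those with Saline + CTRL at 0.691 to 1.15.

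The most abundant transcripts were near their control levels. Cst3, the protease inhibitor cystatin C, was at 51850.2, 42695 and 62280.1 TPM in Saline + CTRL and 56143, 59722 and 57574 TPM in MIA + MG-REP. Tmsb4x, which encodes the actin-binding thymosin beta 4, was at 10894, 9550.2 and 12623 TPM and 12754, 12748 and 12601 TPM, while Saline + MG-REP was at 42582, 24699 and 24643 TPM. For Cst3 and Tmsb4x the log2 fold changes against Saline + CTRL were 0.16 ± 0.26 and 0.21 ± 0.21 (SE), and the libraries of the groups overlapped. The lysosomal protease Ctsd (0.26 ± 0.22) and the complement subunit C1qa (0.30 ± 0.21) also had differences under 0.5 log2 units with an adjusted p of 1.

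Homeostatic microglial transcripts were a group of 28 measured transcripts, of which 1 fell (Gpr165), 0 rose and 26 had an interval within 1 log2 unit of 0. Their median log2 fold change was -0.09, beside -0.03 for all transcripts, and -0.86 in Saline + MG-REP against the same controls, where 18 fell. Over all transcripts 0.295% fell in MIA + MG-REP and 14.9% in Saline + MG-REP. In MIA + MG-REP the median of the homeostatic group was -0.20 without Saline + CTRL 2 and -0.0048 without Saline + CTRL 3. P2ry12, the ADP receptor that guides microglial processes, was at 3779.7, 3422 and 4721 TPM in Saline + CTRL, 2903, 3404 and 3019 TPM in MIA + MG-REP and 609, 949.8 and 926 TPM in Saline + MG-REP. The 3 MIA + MG-REP values lay below the lowest control, and this difference of -0.34 ± 0.24 log2 units did not pass (adjusted p = 1). Tmem119, a surface protein that marks resident microglia, was at 3166, 2354 and 3459 TPM in Saline + CTRL and 2933, 3412 and 3109 TPM in MIA + MG-REP. Cx3cr1, the receptor of the neuronal chemokine fractalkine, was at 3957, 3374 and 4948 TPM and 3219, 3728 and 3356 TPM. Csf1r itself, the target of the drug, was at 7801, 6797 and 9492 TPM and 6357, 7273 and 6824 TPM. All 3 overlapped between the groups, and their 95% intervals were -0.37 to 0.56, -0.63 to 0.15 and -0.62 to 0.17 log2 units. The purinergic receptor P2ry13 and the lysophosphatidylserine receptor Gpr34 had log2 fold changes of -0.35 and -0.35, and neither passed. In direct comparison with Saline + MG-REP, P2ry12 was higher in MIA + MG-REP by 1.93 ± 0.24 log2 units (adjusted p = 1.43e-06) and Cx3cr1 by 1.12 ± 0.19 (adjusted p = 1.08e-04), while Csf1r did not pass (0.51 ± 0.19, adjusted p = 0.0591).

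Proliferation transcripts did not pass against the controls. None of 24 mitotic transcripts and none of 22 DNA replication transcripts passed, with medians of -0.12 and -0.04. Mki67, the proliferation marker Ki-67, was at 3.84, 3.19 and 2.77 TPM in Saline + CTRL and 2.50, 3.16 and 2.65 TPM in MIA + MG-REP, against 234, 93.9 and 82.9 TPM in Saline + MG-REP. The kinase Cdk1, which drives entry into mitosis, was at 4.27, 4.14 and 3.82, 5.05, 5.31 and 4.75 and 125, 46.9 and 46.1 TPM in the same order of groups. Top2a, a topoisomerase of dividing cells, was at 5.70, 7.17 and 4.38, 5.63, 4.88 and 4.09 and 319.7, 119.7 and 110.2 TPM. For all 3 the repopulated MIA libraries stood among or beside the controls and far under every Saline + MG-REP library. All 24 mitotic transcripts were lower in MIA + MG-REP than in Saline + MG-REP at an adjusted p under 0.05, as were 11.0% of all transcripts. For Mki67 the difference was -5.04 ± 0.24 log2 units.

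The 88 transcripts that passed were each separated between the groups, with the 3 MIA + MG-REP libraries all above or all below the 3 controls. Such separation was found for 1980 of all 14225 transcripts (13.9%). All 88 also lay beyond all 6 CTRL libraries, those of Saline and of MIA dams together, which held for 1065 transcripts of the table (7.49%). Of the 88, 12 stayed under 5 TPM in the group where they were higher. Their median log2 fold change was 1.35 for the 46 that rose and -1.27 for the 42 that fell, and 1.20 and -1.23 against the first Saline + CTRL library alone, where 31 and 30 differed by over 1 log2 unit. With Xist as a covariate, 38 of the 88 passed. Of the 15 leading rises described below, the calls of Hcar2, Pilra, Chst1, Pyhin1, Cst7, C3, Pstpip1 and Htra3 were lost there, and of the 15 leading falls those of Apobec2 and Cd4. With the first Saline + CTRL library as the only control, 13 passed, namely Tnfsf8, Pdcd1, Cdkn2a, Gcm2 and Cd52 among the rises and Myo18b, Gpr165, Ptger3, Pla2g2d, Slc5a10, Cd276, Sdk1 and Vnn3 among the falls. Without MIA + MG-REP 1, 2 and 3 in turn, 40, 55 and 58 transcripts passed, without Saline + CTRL 3 it was 55, and in a fit of the 6 libraries alone 31. Over the fits with 1 of the 6 libraries left out, 37 of the 88 passed in all and 7 in none. Among the leading rises, Cst7 passed in 3 of these 6 fits, Hcar2 and Pilra in 2 and Pyhin1 in 1. None of the 88 turned its direction in these settings. Where libraries were left out, this followed from the separation of the groups. Of 87 called transcripts with a RefSeq position, 4 were on the X chromosome (4.6%, against 3.18% of all) and 0 on the Y chromosome.

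Surface receptors and ligands of the immune synapse held the largest rise. Tnfsf8 (NM_009403, on chromosome 4), the ligand of the lymphocyte receptor CD30, was at 2, 1.23 and 2.94 TPM in Saline + CTRL, 2.66, 1.12 and 1.99 TPM in MIA + CTRL and 32.9, 30.9 and 28.3 TPM in MIA + MG-REP. The means of 2.06 ± 0.86 and 30.7 ± 2.28 TPM (SD, n = 3) gave a 14.9-fold higher level after repopulation, or 3.41 ± 0.23 log2 units (adjusted p = 2.01e-09). The level was higher still in Saline + MG-REP, at 55.99, 48.4 and 57.2 TPM, and the difference between the MG-REP groups was -0.79 ± 0.23 log2 units (adjusted p = 0.0135). Pdcd1, which encodes the inhibitory receptor PD-1, was at 4.16, 5.27 and 4.15 TPM in Saline + CTRL and 29.9, 33.6 and 24 TPM in MIA + MG-REP. Each MIA + MG-REP library exceeded each control by a wide margin, by 2.44 ± 0.26 log2 units on average (adjusted p = 5.80e-06). Saline + MG-REP had 47.8, 42.03 and 30.1 TPM of Pdcd1, and the difference from MIA + MG-REP did not pass (-0.43 ± 0.26, adjusted p = 0.269). Sh2d1b1, an adaptor of SLAM family receptors, went from 1.87, 2.11 and 0.68 TPM to 11.5, 15.4 and 12.2 TPM (2.50 ± 0.37, adjusted p = 4.44e-04), and was at 72.7, 52.8 and 42.4 TPM in Saline + MG-REP. Pilra, an inhibitory immunoglobulin-like receptor of myeloid cells, went from 9.89, 11.3 and 17.7 TPM to 46.5, 42.96 and 35.2 TPM (1.64 ± 0.32, adjusted p = 0.00924).

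Cdkn2a, a gene of cell cycle arrest, was also among the rises. Its transcript NM_001040654, which encodes the cyclin-dependent kinase inhibitor p16INK4A, was listed at 0 in all 3 Saline + CTRL libraries and was at 8.02, 7.78 and 4 TPM in MIA + MG-REP, at 7.59, 4.48 and 6.76 TPM in Saline + MG-REP and at 0, 0.65 and 0 TPM in MIA + CTRL. It passed with an adjusted p of 5.49e-09, and no fold is given against a group at 0. The transcript NM_009877, which encodes ARF from the upstream start, was at 0, 0 and 0.52 TPM in Saline + CTRL, 3.39, 0.53 and 1.31 TPM in MIA + MG-REP and 11.1, 10.3 and 11.2 TPM in Saline + MG-REP. It did not pass against Saline + CTRL (adjusted p = 0.348) and differed from Saline + MG-REP by -2.25 ± 0.38 log2 units (adjusted p = 1.04e-04). These transcripts share exons, and the authors' counting of 40-bp reads may not divide reads between them exactly, so the split is uncertain.

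Hcar2, Tnfsf13b and C3, members of the metabolite receptor, cytokine and complement lists, also rose. Hcar2, a receptor of beta-hydroxybutyrate and nicotinic acid, was at 41.9, 26.7 and 23.96 TPM in Saline + CTRL and 232, 223 and 145 TPM in MIA + MG-REP, a 6.48-fold difference of means (2.67 ± 0.53, adjusted p = 0.0104). The Saline + MG-REP libraries were at 231, 263 and 208 TPM and overlapped those of MIA + MG-REP. Tnfsf13b, which encodes the B cell survival factor BAFF, was at 31.6, 23.98 and 34.2 TPM and 94.1, 92.4 and 80.3 TPM (1.55 ± 0.29, adjusted p = 0.00713), and at 158, 112 and 92.5 TPM in Saline + MG-REP. C3, the central component of complement, was at 7.64, 8.67 and 6.43 TPM and 27.9, 24.1 and 19.4 TPM (1.53 ± 0.35, adjusted p = 0.0397). The call of C3 was lost when any 1 of the 6 libraries was left out. Its Saline + MG-REP values of 12.9, 64.1 and 44.8 TPM fell on both sides of MIA + MG-REP. Trpm2, a cation channel opened by oxidative stress, and Haao, an enzyme of the kynurenine pathway, rose by 1.13 and 1.36 log2 units.

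Interferon-inducible and disease-associated transcripts rose in small number. Ifi204, of the family of interferon-inducible DNA sensors, was at 20.5, 11.03 and 15.9 TPM in Saline + CTRL, 60.2, 60.3 and 50.5 TPM in MIA + MG-REP and 136, 209 and 264 TPM in Saline + MG-REP, so that MIA + MG-REP stood between the other two groups without overlap (1.82 ± 0.24, adjusted p = 1.34e-04). Ifi27l2a, another interferon-induced transcript, was at 26.9, 17.2 and 27.2, 62.2, 69.7 and 52.3 and 402, 438 and 489.5 TPM in the same order, and Pyhin1, a relative of Ifi204, at 7.66, 4.09 and 7.02, 20.9, 22.3 and 17.3 and 17.2, 47.5 and 64.4 TPM. Ifi204 and Pyhin1 belong to a family of near copies, and reads may be shared among its members. Cst7, the cathepsin inhibitor cystatin F, was at 24.8, 17.9 and 9.36 TPM in Saline + CTRL and 58, 48.9 and 42.1 TPM in MIA + MG-REP (1.55 ± 0.31, adjusted p = 0.0113). Itgax, the integrin CD11c, was at 18.9, 14.8 and 19.9 TPM and 49.7, 54.8 and 44.3 TPM (1.43 ± 0.21, adjusted p = 4.44e-04). Cd52, a small surface glycoprotein of leukocytes, was at 289, 281 and 422 TPM and 747, 846 and 727 TPM. For Cst7, Itgax and Cd52 the Saline + MG-REP libraries were higher again, at 85.3, 186 and 184, 88.5, 101 and 76.8 and 2841, 2414 and 2447 TPM.

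The rest of the 15 leading rises were Chst1, Pstpip1, Htra3 and C920009B18Rik. Chst1, a sulfotransferase of keratan sulfate, was at 61.1, 102 and 28.5 TPM in Saline + CTRL and 178, 173 and 174 TPM in MIA + MG-REP, so that the controls were widely spread and the MIA + MG-REP libraries nearly equal (1.62 ± 0.31, adjusted p = 0.0086). Pstpip1, a cytoskeletal adaptor that binds pyrin, went from 9.97, 9.81 and 11.2 TPM to 35.7, 29.4 and 29.4 TPM (1.52 ± 0.28, adjusted p = 0.00469). Htra3, a secreted serine protease, went from 10.95, 9.42 and 10.8 TPM to 33.4, 33.5 and 27.8 TPM (1.51 ± 0.35, adjusted p = 0.0397), and its second transcript rose as well. With 1 of the 6 libraries left out, the call of the first was lost in every case, and that of the second in every case but the one without Saline + CTRL 3. The uncharacterised C920009B18Rik went from 1.12, 0.67 and 1.08 TPM to 5.58, 4.99 and 4.73 TPM, and reads of an antisense partner could not be separated in these non-stranded libraries. Among the smaller rises, St8sia6, a sialyltransferase, was at 14.4, 10.2 and 8.92 TPM in Saline + CTRL, 33.7, 31.9 and 27.6 TPM in MIA + MG-REP and 9.46, 20.3 and 16.6 TPM in Saline + MG-REP. Lrrc3, a leucine-rich repeat protein, was at 200.2, 165 and 184, 317, 357 and 319 and 158, 219 and 229 TPM in the same order. Both were also higher in MIA + MG-REP than in Saline + MG-REP, by 1.02 ± 0.26 and 0.72 ± 0.15 log2 units (adjusted p = 0.00511 and 9.54e-04), as were Gm16897, Mtap7d3 and 4930486L24Rik. These 5 were named after their values were seen. The remaining rises, with log2 fold changes of 0.38 to 1.53, comprised Pxdc1, the leukocyte surface molecules Cd34, Cd69, Klrg2 and Ms4a4c, the kinase Map4k1, the anti-apoptotic Bcl2a1a, the transcription factors Gcm2 and Rxrg, the membrane protease St14, the lysosomal cofactor Gm2a, the motor Myo5a, the ribosomal Rpl39, and Fgl2, Tns4, Gm8909, Rassf3, Eif4e3 and Hpcal1. Pxdc1, a membrane-associated protein named for its PX domain, was at 73.3, 54.4 and 44.6 TPM in Saline + CTRL and 154, 149.8 and 134 TPM in MIA + MG-REP (1.36 ± 0.16, adjusted p = 2.96e-05). Bcl2a1a, Ms4a4c and Gm8909 have near copies in the genome, among which reads may be divided.

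**Figure D3:**
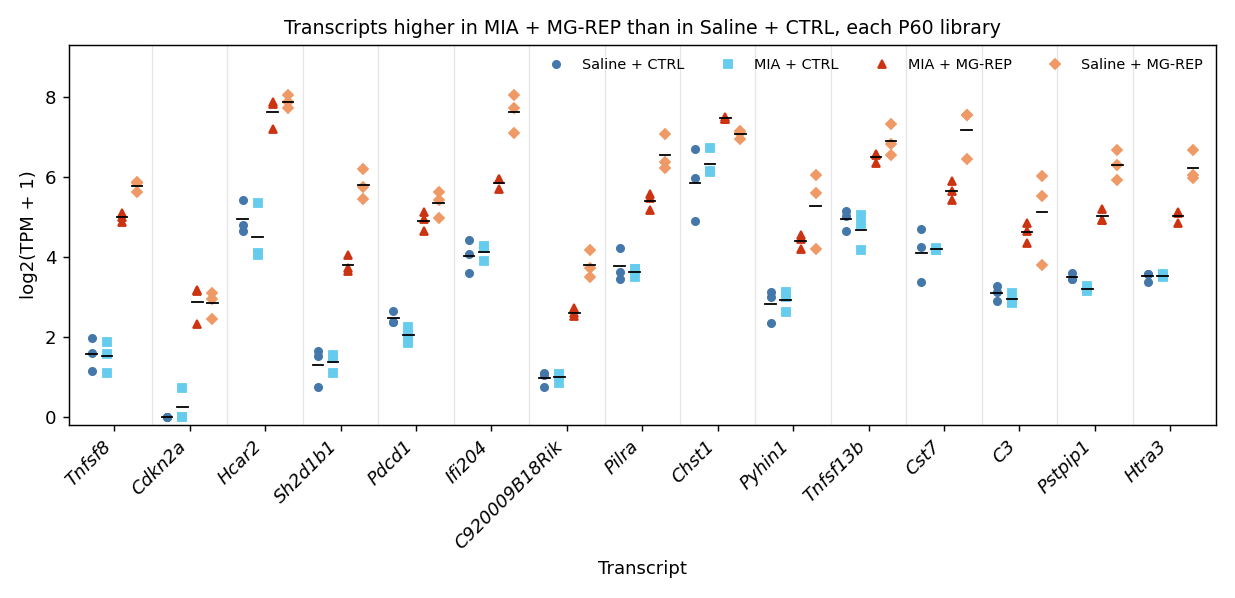
Log2(TPM + 1) (y axis) of the 15 leading transcripts that were higher in MIA + MG-REP than in Saline + CTRL (x axis), with 1 point for each of the 3 libraries of the 4 P60 groups and a bar at each mean. The MIA + MG-REP triangles stand above all Saline + CTRL and MIA + CTRL points. For Tnfsf8, Sh2d1b1, Ifi204, C920009B18Rik, Pilra, Cst7, Pstpip1 and Htra3 they stand below all Saline + MG-REP points.

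The largest fall was that of Myo18b (NM_028901), an unconventional myosin otherwise known from striated muscle. It was at 46.6, 25.3 and 41.7 TPM in Saline + CTRL, 27.1, 40.5 and 36.4 TPM in MIA + CTRL and 1.81, 2.37 and 2.34 TPM in MIA + MG-REP. The means of 37.9 ± 11.1 and 2.17 ± 0.32 TPM (SD, n = 3) differed 17.4-fold, or by -3.57 ± 0.27 log2 units (adjusted p = 1.30e-08). In Saline + MG-REP it was at 0.20, 0.20 and 0.40 TPM, lower again by a tested 1.32 log2 units (adjusted p = 9.86e-04).

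Among receptors, Gpr165 (NM_029536, on the X chromosome), an orphan receptor of the homeostatic list, was at 85.2, 75.5 and 119 TPM in Saline + CTRL and 7.47, 10.04 and 11.5 TPM in MIA + MG-REP. Its means differed 9.62-fold (-3.13 ± 0.40, adjusted p = 6.25e-05), and Saline + MG-REP was lower still at 0.07, 1.19 and 1.54 TPM. Ptger3, the EP3 receptor of prostaglandin E2, was at 9.44, 6.82 and 9.15 TPM and 0.52, 0.61 and 0.96 TPM (-2.48 ± 0.29, adjusted p = 1.89e-05). Here Saline + MG-REP, at 1.42, 0.54 and 0.41 TPM, overlapped MIA + MG-REP, and the difference between the MG-REP groups was -0.04 ± 0.29 log2 units. Tnfrsf17, the receptor BCMA for BAFF and its relative APRIL, was at 43.3, 35.2 and 43.4 TPM in Saline + CTRL and 6.78, 11.2 and 5.97 TPM in MIA + MG-REP (-2.25 ± 0.38, adjusted p = 0.00203), while the ligand Tnfsf13b was higher. In Saline + MG-REP Tnfrsf17 was at 0, 1.68 and 1.35 TPM, so that MIA + MG-REP lay between. Cd276, the co-inhibitory ligand B7-H3, was at 38.2, 46.4 and 68.1 TPM and 16.97, 17.9 and 15.3 TPM (-1.51 ± 0.17, adjusted p = 1.37e-05). Cd4, the co-receptor of helper T cells that some macrophages also carry, was at 8.56, 7.91 and 6.91 TPM and 1.1, 3.56 and 2.82 TPM (-1.40 ± 0.32, adjusted p = 0.0388).

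Secreted proteins and enzymes made up most of the other leading falls. Pla2g2d, a secreted phospholipase A2, was at 11.04, 8.14 and 6.12 TPM in Saline + CTRL and 0.58, 2.27 and 1.82 TPM in MIA + MG-REP (-1.92 ± 0.23, adjusted p = 2.43e-05). Ccl24, the chemokine eotaxin-2, was at 37.2, 25.8 and 17.2 TPM and 7.33, 12.2 and 9.22 TPM (-1.35 ± 0.30, adjusted p = 0.0334). The lysozyme-like Lyzl4 was at 8.96, 8.01 and 8.29 TPM and 1.05, 2.46 and 2.44 TPM. In each of these the highest MIA + MG-REP library lay below the lowest control. Gem, a small GTPase that restrains calcium channels, was at 230.5, 296 and 327 TPM and 77.2, 118 and 87.4 TPM (-1.59 ± 0.22, adjusted p = 2.55e-04). Slc5a10, a sodium-dependent sugar transporter, went from 7.77, 2.56 and 6.88 TPM to 0.70, 0.22 and 0.11 TPM. Apobec2, a member of the cytidine deaminase family, was 4.50-fold lower in means, and Ccdc162, a coiled-coil protein, 5.55-fold lower. Gm13889, at 224, 255 and 200.03 TPM in Saline + CTRL and 98.96, 81.6 and 74.2 TPM in MIA + MG-REP, and Gm15880 have no established function and completed the 15.

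**Figure D4:**
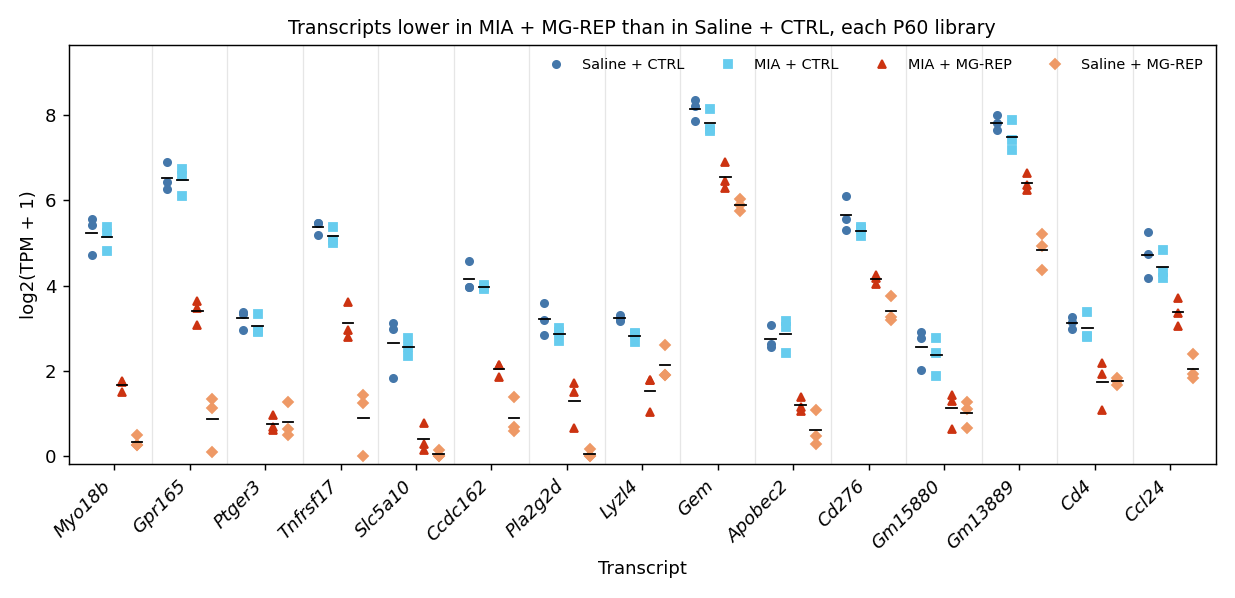
Log2(TPM + 1) (y axis) of the 15 leading transcripts that were lower in MIA + MG-REP than in Saline + CTRL (x axis), with 1 point for each of the 3 libraries of the 4 P60 groups and a bar at each mean. The MIA + MG-REP triangles stand below all Saline + CTRL and MIA + CTRL points. For Myo18b, Gpr165, Tnfrsf17, Ccdc162, Pla2g2d, Gem, Cd276, Gm13889 and Ccl24 they stand above all Saline + MG-REP points.

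Of the smaller falls, Sdk1, an adhesion protein of synapses, was at 15.1, 9.47 and 19.3 TPM in Saline + CTRL and 4.90, 6.01 and 5.33 TPM in MIA + MG-REP, and Sema4b, a membrane semaphorin of axon guidance, at 52.5, 51.9 and 46.2 TPM and 23.9, 18.1 and 25.6 TPM. Vnn3, a relative of pantetheinase, was at 4.77, 2.58 and 1.88 TPM in Saline + CTRL, 0.43, 0.27 and 0.94 TPM in MIA + MG-REP and 5.81, 10.97 and 13.3 TPM in Saline + MG-REP, so that the MG-REP groups stood on opposite sides of the control. The complement component C2 went from 11.8, 13.9 and 8.91 TPM to 4.46, 4.26 and 5.69 TPM. The call of C2 held without Saline + CTRL 3, was lost without any other of the 6 libraries, and was lost with Xist as a covariate (adjusted p = 0.247). The metabolic enzyme Idh2, a mitochondrial isocitrate dehydrogenase, went from 287, 293 and 256 TPM to 185, 178 and 197 TPM, the smallest proportion among those just named. Sdk1, Vnn3, C2 and Idh2 were named after their values were seen. The remaining falls, with log2 fold changes of -0.49 to -1.80, included the erythropoietin receptor Epor, the integrin Itgae, the sialomucin Cd164, the chemokine receptor-like Ccr1l1, the kinase Prkca, the junction protein Jup, the calcineurin regulator Rcan1, the flippase Atp8b1, the sulfotransferase Chst8, and Lrba, Engase, Arrdc3, Mdfi, Ccdc36, Ints10, Stard8, Gm3002, Gm3704, Gm7694 and 5730435O14Rik. Ccr1l1, Gm3002 and Gm3704 have near copies, so that their values are uncertain.

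Immune gene lists had few members past the test, though over the whole table only 0.323% rose and 0.295% fell. The lists were chosen with earlier results of these data known. Of 31 interferon-response transcripts, 2 rose, 0 fell and 30 had a log2 fold change above 0, as did 43.5% of all transcripts, with a median of 0.43. Bst2, which tethers budding viruses, was at 322, 224 and 284 TPM in Saline + CTRL and 403, 397 and 317 TPM in MIA + MG-REP (0.43 ± 0.16, adjusted p = 0.485). Cxcl10, an interferon-induced chemokine, was at 56.8, 49.5 and 48.1 and 99.7, 103 and 64.8 TPM (0.75 ± 0.32, adjusted p = 0.644), against 1363, 828 and 886 TPM in Saline + MG-REP. The median of the list was 0.20 with Xist as a covariate and 0.14 against the first Saline + CTRL library alone, and 1.64 in Saline + MG-REP. Of 13 MHC class I transcripts none passed, with a median of 0.33. B2m, the light chain of MHC class I, was at 5499, 4309 and 6284 TPM and 8251, 8396 and 7644 TPM without overlap (0.61 ± 0.20, adjusted p = 0.288), and passed only under quantile normalization (0.66, adjusted p = 0.0176). Of 9 MHC class II transcripts 1 rose, H2-DMa, which helps load peptides and was at 186, 149.7 and 203 TPM and 352, 359 and 319.8 TPM (0.94 ± 0.18, adjusted p = 0.00744). All 9 were above 0 with a median of 0.40, but the median was -0.12 against the first Saline + CTRL library. H2-Aa, a chain of MHC class II, was at 507, 316 and 303 TPM in the controls and 421, 539.9 and 441 TPM in MIA + MG-REP, and the first control stood inside the MIA + MG-REP range.

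Of 29 disease-associated transcripts 3 rose (Cst7, Itgax and Cd52) and 0 fell, with a median of 0.19, against 19 higher and a median of 0.82 in Saline + MG-REP. Over all transcripts 0.323% rose in MIA + MG-REP and 11.9% in Saline + MG-REP. Gpnmb, a glycoprotein of lipid-laden microglia, was at 2.59, 2.46 and 1.66 TPM in Saline + CTRL and 6.01, 4.32 and 3.07 TPM in MIA + MG-REP (adjusted p = 0.729). Il1b, which encodes interleukin-1 beta, was at 263, 313 and 194 and 282, 281 and 219 TPM, while Saline + MG-REP was at 2228, 2160.5 and 1744 TPM. Il1b thus overlapped between MIA + MG-REP and the control group, and its difference from Saline + MG-REP was -2.97 ± 0.32 log2 units (adjusted p = 2.72e-07). Of 29 cytokine and chemokine transcripts 2 rose (Tnfsf8 and Tnfsf13b), with a median of 0.21, or 0.06 with Xist as a covariate, against 1.75 in Saline + MG-REP. Of 18 checkpoint and co-stimulation transcripts 2 rose (Tnfsf8 and Pdcd1) and 1 fell (Cd276). Lag3, an inhibitory relative of CD4, was at 887, 696 and 1199.9 TPM and 1212, 1276 and 1143 TPM, against 49.99, 443 and 435 TPM in Saline + MG-REP, with an interval against the controls of -0.58 to 1.42. Of 14 complement transcripts 1 rose (C3) and 1 fell (C2), with a median of 0.13 that was -0.0007 without Saline + CTRL 2, and of 28 receptors of lipids, metabolites and nucleotides 1 rose (Hcar2) and 2 fell (Gpr165 and Ptger3).

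Other lists had no member past the test. They were NF-kB signalling (23 transcripts, median -0.06), the CSF1R axis (18, 0.09), TGF-beta signalling (29, -0.02), cholesterol synthesis and efflux (26, -0.08), lysosome (36, 0.05), glycolysis (22, 0.01) and synaptic transmission (31, 0.12). All 36 lysosomal and all 18 CSF1R-axis intervals lay within 1 log2 unit of 0, as did 12 of the 31 synaptic ones. The synaptic median was 0.39 without Saline + CTRL 2, -0.16 without Saline + CTRL 3 and -0.15 with Xist as a covariate. Of 33 axon guidance transcripts, 1 fell (Sema4b). The 28 immediate early and stress transcripts had a median of -0.45 with 4 above 0 and none past the test. Fos, a subunit of AP-1 that is induced within minutes of a stimulus, was at 5264, 5378 and 8694 TPM in Saline + CTRL and 4370.2, 5148 and 3985 TPM in MIA + MG-REP, and its partner Jun at 6146, 5255 and 8369 and 4286, 5771 and 4002 TPM. The median of this list was -0.13 with Xist as a covariate, and its part in the other differences was not tested.

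**Figure D5:**
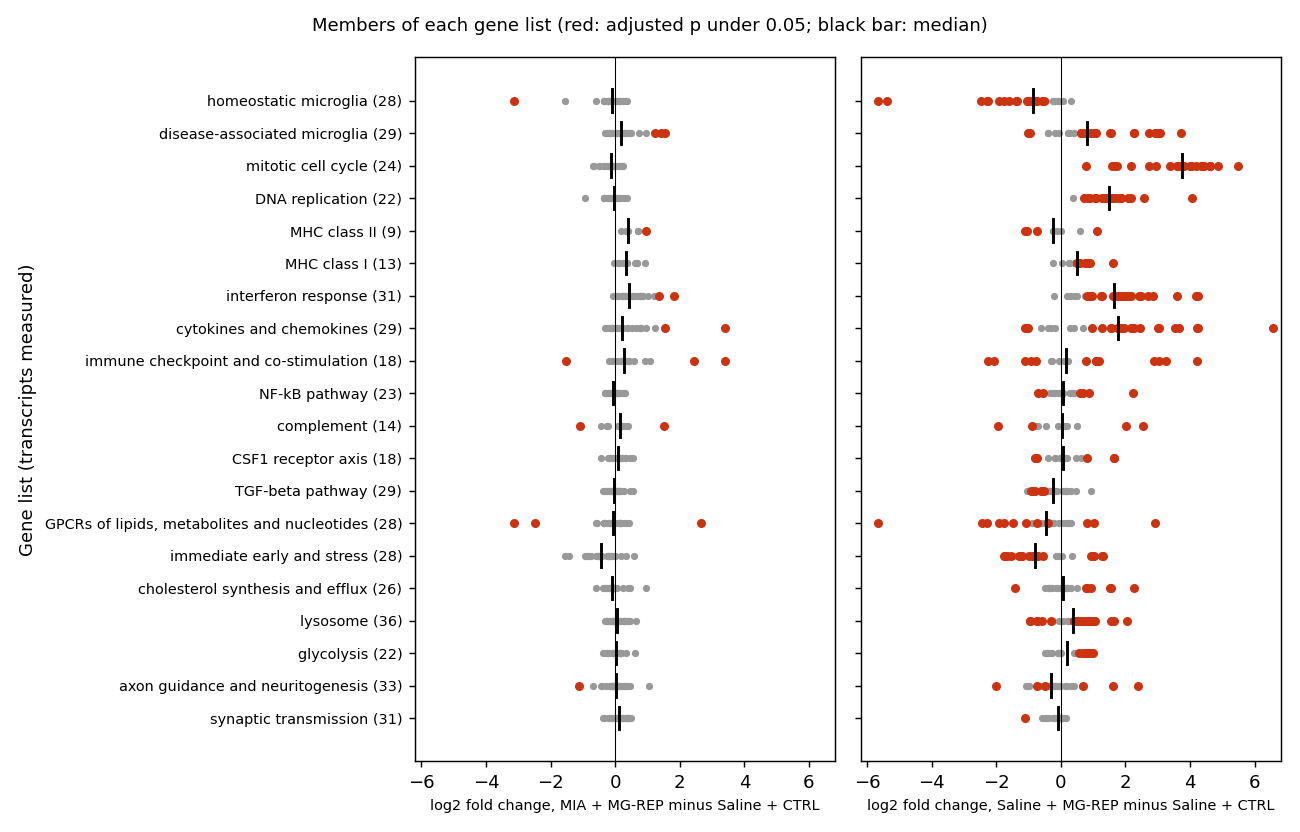
Log2 fold change (x axis) of each measured transcript of 20 gene lists (y axis, number of transcripts in brackets) in MIA + MG-REP (left) and Saline + MG-REP (right) against Saline + CTRL, with transcripts of an adjusted p under 0.05 in red and a black bar at the median. In MIA + MG-REP most points sit near 0, as in the mitotic list with a median of -0.12, which is at 3.76 on the right.

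Markers of other cells that CD11B beads or tissue debris may bring along were compared as lists. Of the lists for neurons, astrocytes, oligodendrocyte lineage, endothelial and mural cells, choroid plexus and ependyma, border macrophages, monocytes and neutrophils, and erythroid cells, none had a member past the test. Of 13 T, NK and B cell markers 2 fell, Cd4 and Cd79b, while 0.295% of all transcripts fell. Cd79b, a B cell receptor subunit, was at 2.90, 1.12 and 1.97 TPM and 0.43, 0.40 and 0.20 TPM. With 1 of the 6 libraries left out, the call of Cd4 held only without MIA + MG-REP 2. That of Cd79b held only without Saline + CTRL 2. Both calls were lost with Xist as a covariate (adjusted p = 0.247 and 0.169). The T, NK and B cell markers had a median log2 fold change of -0.29, with 1 of the 13 above 0. They summed to 41.0 to 95.7 TPM in Saline + CTRL and 73.8 to 90.2 TPM in MIA + MG-REP. Their part in the fall of Tnfrsf17, Cd4 and Cd79b was not tested. Border macrophage markers summed to 1000 to 1300 TPM and 760.3 to 957 TPM, with a median log2 fold change of -0.31. Of these 12 markers 3 were above 0, the highest at 0.81. Among those below 0, the mannose receptor Mrc1 was at 212, 197 and 176 and 102, 152 and 120.5 TPM (adjusted p = 0.348). The chemokine Pf4 was at 156, 133 and 122 and 69.6, 92.04 and 79.6 TPM (adjusted p = 0.727). Neither overlapped between the groups, as was found for 13.9% of all transcripts. Oligodendrocyte markers had a median of -0.39, at sums of 572 to 2350 TPM and 565 to 1040 TPM, and monocyte and neutrophil markers one of -0.12, at 812 to 957 TPM and 546 to 986 TPM. The oligodendrocyte median was -0.0126 without Saline + CTRL 2 and -0.91 without Saline + CTRL 3. In bulk RNA, fewer cells of a type and less RNA per cell cannot be told apart.

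In the direct contrast with the other repopulated group, the 5 largest differences upward were Upk1b, Mlph, Gp9, Rnu11 and Atp8a2. Upk1b, a tetraspanin of the urothelium, was at 135, 82.7 and 123 TPM in Saline + CTRL, 27.7, 43.2 and 41.96 TPM in MIA + MG-REP and 0.41, 2.15 and 3.25 TPM in Saline + MG-REP (3.83 ± 0.42 between the MG-REP groups, adjusted p = 2.74e-07). Gp9, a platelet glycoprotein, was at 77.8, 72.3 and 85.1, 61.1, 76.4 and 86.4 and 5.30, 10.7 and 11.1 TPM, and the lipid flippase Atp8a2 at 78.98, 67.3 and 90.8, 74.7, 79.1 and 79.4 and 3.11, 18.6 and 17.8 TPM. For Gp9 and Atp8a2 the MIA + MG-REP libraries overlapped the controls, and for Upk1b they lay between the groups. Mlph, which links melanosomes to myosin, was higher than in Saline + MG-REP by 3.37 ± 0.34 log2 units, and the small nuclear RNA Rnu11 by 2.87 ± 0.96. The SE of Rnu11 was far above the median of 0.214 over all transcripts.
The 5 largest differences downward were Il12b, which encodes a subunit of interleukins 12 and 23, and the mitotic transcripts Ube2c, Ccnb2, Mki67 and Cdca3. Il12b was at 1.07, 0.44 and 1.07 TPM in Saline + CTRL, 3.98, 2.35 and 1.65 TPM in MIA + MG-REP and 314, 127 and 128 TPM in Saline + MG-REP (-5.61 ± 0.51, adjusted p = 1.43e-08). Ube2c, a ubiquitin-conjugating enzyme that acts in mitosis, was at 4.16, 2.66 and 0.52, 3.38, 2.37 and 2.08 and 261, 116 and 85.8 TPM, with MIA + MG-REP again among the controls. Ccnb2, Mki67 and Cdca3 differed by -5.05, -5.04 and -4.89 log2 units. Over the alternative fits of these 10 transcripts against Saline + MG-REP, the call held 144 times and was lost 6 times.

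By the modules that the authors formed from these same libraries, the 88 transcripts were unevenly placed. The module of repopulated adult microglia (REP-AM, 1134 transcripts) held 38 of the rises and 1 fall, the juvenile module (JM, 2318) 0 and 20, and the MIA immature module (MIA-IM, 2816) 0 and 10. The adult module (AM, 3276) held 5 and 6, and the immature module (IM, 4681) 3 and 5. Because the libraries of both groups entered the making of the modules, these counts are no independent evidence. In relation to age, the P20 Saline mean lay below that of Saline + CTRL for 22 of the 46 transcripts that rose and for 22 of the 42 that fell.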

How the data were processed

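RNA of CD11B bead-isolated brain cells was sequenced by the authors as 40-bp single-end reads from non-stranded poly(A) libraries. Per the methods of the study, reads were aligned to mm10 with Rsubread, counted with featureCounts on a UCSC annotation, and transcripts that reached a CPM of 2 in 3 or more of the 30 libraries were kept. The values deposited by the authors are TPM of 14225 transcripts with a module for each. The formula of the TPM is not given in the sources used here, and no count test was made on them.

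Here, limma 3.58.1 in R 4.3.3 was fitted to log2(TPM + 1) of all 30 libraries, with 1 mean for each of the 10 groups and a mean-variance trend, and p-values were adjusted by Benjamini-Hochberg over all transcripts at 0.05. The pseudocount of 1 makes fold changes of low transcripts too small. The smallest p of an exact permutation test was 0.1. Libraries were grouped by their labels. The members and gene lists were chosen with earlier results of these data known. Named were the 15 largest rises and falls with separate groups and at least 5 TPM, the called and the 4 highest members of each list as far as the text needed them, the 5 highest transcripts, genes the study names, and the 5 largest differences in each direction from Saline + MG-REP, and some transcripts are not reported here. RefSeq positions and promoters of GRCm38.p6 matched 14124 transcripts (99.3%). Alternatives were a pseudocount of 0.1, a mean of at least 1 TPM, median-ratio scaling, quantile normalization, a replicate block, fits of fewer groups, Xist as a covariate, no trend, and leaving out each library. A fit with the first Saline + CTRL library as the only control was added after seeing the data. Figures were drawn in Python 3.11.15 with matplotlib 3.10.9.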

Additional observations from a re-analysis of the deposited data

Results flagged for a closer look

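The difference between the repopulated groups was tested directly in the same fit, and 3124 of 14225 transcripts passed it. Saline + MG-REP 1 stands apart from its group, and 1731 passed without it. Among the 30 leading transcripts, those whose change against Saline + CTRL was larger in Saline + MG-REP and that passed this test had the following log2 differences, MIA + MG-REP minus Saline + MG-REP. They were -0.79 for Tnfsf8, -2.00 for Sh2d1b1, -1.77 for Ifi204, -1.19 for C920009B18Rik, -1.15 for Pilra, -1.52 for Cst7, -1.27 for Pstpip1 and -1.21 for Htra3. Among the falls they were 1.32 for Myo18b, 2.54 for Gpr165, 2.24 for Tnfrsf17, 1.15 for Ccdc162, 1.23 for Pla2g2d, 0.66 for Gem, 0.75 for Cd276, 1.58 for Gm13889 and 1.33 for Ccl24. Within Saline + MG-REP the monocyte and neutrophil markers summed to 96.9, 5648 and 391.6 TPM and the border macrophage markers to 2745, 1552 and 1495 TPM, and their part in the differences was not tested. The groups differ in the treatment of the dam, and whether a litter or another unlabelled factor has a part was not tested.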

How the results depend on the processing

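The counts of transcripts that passed against Saline + CTRL, 88 with 46 higher and 42 lower, moved most with the libraries entered. They were 31, 19 and 12 in a fit of only the 2 groups, 40, 18 and 22 with Xist as a covariate, and 14, 6 and 8 with Saline + CTRL 1 as the only control, which was chosen after seeing the data and assumes that the lone library varies like the other groups. Quantile normalization gave 67, 41 and 26. With 1 library left out, the counts ran from 40 to 71 in all, 21 to 41 higher and 19 to 36 lower. They were 40, 55 and 58 without MIA + MG-REP 1, 2 and 3, and 71, 64 and 55 without Saline + CTRL 1, 2 and 3. Against Saline + MG-REP, leaving out 1 library gave 1731 to 3141. The distance of 0.283 between the group means became 0.409 at a pseudocount of 0.1. Median log2 fold change over all transcripts was -0.11 with the Xist covariate. In a fit with the replicate block 86 passed, 73 of them among the 88. Deviations from the group means correlated at 0.0347, -0.531 and -0.372 between same-numbered libraries of the 2 groups, and at up to 0.531 between differently numbered ones. With 3 libraries a group, these values cannot decide whether replicate numbers stand for a shared batch.

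Of the 88, none turned its direction in these settings, and 15 passed in all those they were tested in, other than the block and the lone control, with Gcm2 not tested at a mean of at least 1 TPM. Where libraries were left out, the direction could not turn, since the groups were separated for all 88. Medians of several lists moved or changed sign with the control libraries entered, as given beside some of them. Among named transcripts, turned signs occurred only in values that had not passed, from -0.49 (Fos) to 0.40 (H2-Eb1). Under quantile normalization C1qa was at 0.00, with Xist as a covariate Il1b was at -0.10 and Fos at 0.0006, and with Saline + CTRL 1 alone Tmem119 was at -0.0092, Il1b at -0.0231, H2-Aa at -0.12, H2-Ab1 at -0.12 and H2-Eb1 at -0.18. With a library left out, Tmem119 ran from -0.0732 to 0.20 and Il1b from -0.15 to 0.20. The cause of these shifts was not tested. With 3 libraries a group and a median SE of 0.214 log2 units, differences much smaller than 1 log2 unit were often not detectable.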
